A study of Homo sapiens with 8 samples.

Results

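Imprinted genes are expressed mainly from the allele inherited from a single parent. The 39 genes examined here are imprinted in human tissues, and they were found on the array as every non-control probe whose gene name equals a member of the list, 59 probes of the 50599 on the array and 39 of 36337 gene names. By catalogues of human imprinting, 18 of them are expressed from the paternal allele (IGF2, KCNQ1OT1, PEG3, ZIM2, PEG10, SGCE, MEST, DLK1, RTL1, SNRPN, NDN, MAGEL2, MKRN3, PLAGL1, HYMAI, NNAT, DIRAS3 and NAP1L5) and 7 from the maternal allele (H19, CDKN1C, KCNQ1, PHLDA2, SLC22A18, KLF14 and MEG3). For the other 14 the parental origin depends on the isoform or tissue or is disputed (COPG2, DIO3, UBE3A, ATP10A, GRB10, BLCAP, GNAS, ZFAT, WT1, IGF2R, INS, TP73, PPP1R9A and DLX5). The arrays do not read alleles, so the parental class is a catalogue label here and not a measurement.

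Total RNA of DLD1 cells, an established human colorectal cancer line, was measured on 8 single-colour arrays in 4 groups of 2. The cells first took up a control siRNA, named siCONT, or siUHRF1-1 or siUHRF1-2, which are 2 different siRNAs to UHRF1. After 48 h they were given 300 nM of the histone deacetylase inhibitor TSA (trichostatin A), or ethanol as mock, for 24 h. The groups were thus siCONT and UHRF1 depletion, each under mock and each under TSA. A depletion group consists of 1 array per siRNA, and in pairs of values for these groups siUHRF1-1 is given before siUHRF1-2. Where 4 pairs of levels follow one another without labels, the mock groups come before the TSA groups, and siCONT before UHRF1 depletion under each agent. All groups share a single parental line and a transient transfection, and the study asked whether loss of UHRF1 and HDAC inhibition together reactivate silenced genes.

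Imprinted expression rests on DNA methylation that is laid down in the germ line on control regions of a single allele and then copied at each cell division. DNMT1 copies it, and UHRF1 brings DNMT1 to newly replicated DNA. Many imprinted genes lie in clusters in which a control region acts on several genes at once, among them the cluster at 11p15 with IGF2 and H19 beside KCNQ1, CDKN1C and their neighbours, and altered IGF2 imprinting is known from colorectal cancer.

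A level is the log2 intensity minus the 75th percentile of the array, so 0 is the intensity below which 75% of the probes lie. A call required a change of 2-fold or more and, over all tested probes, an adjusted p (limma, Benjamini-Hochberg) below 0.05. A gene was tested where both arrays of at least 1 compared group had its probe well above background. Within a siCONT group the arrays differed hardly more than repeated spots do (1.22 and 1.01 times the spot noise), so each siCONT group counts as 1 sample in a mean, and a fit with these arrays averaged (6 samples) stands beside the fit of 8 arrays. The UHRF1 level itself was 1.98 and 2.01 in siCONT with mock, 0.34 and −0.02 after depletion, 1.04 and 1.01 in siCONT with TSA, and −1.55 and −2.14 with both. On the single slide, row 1 held mock and row 2 TSA, while columns 1 and 2 held siCONT and columns 3 and 4 UHRF1 depletion, so agent and row, and siRNA and column, cannot be told apart. All 9 colon epithelial markers of a list were above background on every array, but not all were steady. EPCAM stayed between 6.76 and 7.40, while GPA33 had 2.93 and 3.02, 3.55 and 3.63, −2.28 and −2.75, and −1.72 and −0.64. Called lower were 2 of the 9 with TSA in siCONT (GPA33 and VIL1) and 4 with TSA in depleted cells (also KRT20 and CEACAM5), and KRT20 was called higher with UHRF1 depletion under mock. Of 7 markers of other cell types 5 were above background on no array, while the collagen gene COL1A1 and the desmin gene DES were detected. COL1A1 was not above background in the mock groups and stood at −1.74 and −1.81 in siCONT with TSA and −1.05 and −0.27 with both, and DES had 0.09 and 0.34 in siCONT with mock and 1.79 and 1.45 with both. Both of them were called higher with both treatments and with TSA in depleted cells. The part of these markers in the results was not tested. In such bulk RNA, fewer cells expressing a gene and less of its RNA per cell cannot be told apart.

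H19 and MEG3 are noncoding RNAs that several probes read at different places, and the probe sequences are shown because the H19 probes moved together while those of MEG3 did not. They are given 5′ to 3′ with their hg19 positions.
H19 A_24_P52697, chr11:2016674-2016733, minus strand: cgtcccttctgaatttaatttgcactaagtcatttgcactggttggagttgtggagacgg
H19 A_19_P00323082, chr11:2016961-2017020, minus strand: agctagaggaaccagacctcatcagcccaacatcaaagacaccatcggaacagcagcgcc
MEG3 A_32_P40547, chr14:101295974-101296033, plus strand: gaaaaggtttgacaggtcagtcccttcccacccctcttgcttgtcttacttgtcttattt
MEG3 A_33_P3309501, chr14:101325072-101325131, plus strand: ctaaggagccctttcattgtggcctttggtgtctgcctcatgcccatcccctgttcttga
MEG3 A_33_P3255434, chr14:101327286-101327345, plus strand: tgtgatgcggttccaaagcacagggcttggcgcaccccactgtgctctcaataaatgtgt

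RefSeq promoter windows (GRCh38.p14, from 250 bases before to 50 after a start site) were used for 25 of the 39 members, 56 windows in all. The median window held 18.5 CpG dinucleotides, against 14 over the 35116 windows of the whole table. TGCCGC, the hexamer bound by the imprint-protecting zinc finger protein ZFP57, was searched on both strands and occurred in 23 of the 56 member windows (41.1%) and in 16.7% of all windows. Windows of a gene can overlap, and HYMAI and PLAGL1 share a window, so these shares are a description. H19, NAP1L5 and DIO3, which were higher with UHRF1 depletion plus TSA, held 6, 18 and 28 CpG with 0, 2 and 0 hexamers, and NDN, which was above background on no array, held 35 CpG and 1 hexamer. These are examples, and the groups of genes overlapped. IGF2R, also higher with both, held 41 CpG and 1 hexamer, and windows of GRB10, higher as well, held from 3 to 49 CpG. Windows of the genes above background on no array held from 2 (SNRPN) to 39 CpG (KLF14). Capitals mark the CpG dinucleotides that maintenance methylation copies.
H19, chr11:2001217-2001516, minus strand: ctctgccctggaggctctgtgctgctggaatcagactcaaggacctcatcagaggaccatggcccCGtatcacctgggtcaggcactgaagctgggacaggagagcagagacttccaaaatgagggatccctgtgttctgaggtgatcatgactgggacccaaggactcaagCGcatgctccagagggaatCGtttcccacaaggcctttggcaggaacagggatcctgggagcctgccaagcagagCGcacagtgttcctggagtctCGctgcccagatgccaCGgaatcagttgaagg
NAP1L5, chr4:88697780-88698079, minus strand: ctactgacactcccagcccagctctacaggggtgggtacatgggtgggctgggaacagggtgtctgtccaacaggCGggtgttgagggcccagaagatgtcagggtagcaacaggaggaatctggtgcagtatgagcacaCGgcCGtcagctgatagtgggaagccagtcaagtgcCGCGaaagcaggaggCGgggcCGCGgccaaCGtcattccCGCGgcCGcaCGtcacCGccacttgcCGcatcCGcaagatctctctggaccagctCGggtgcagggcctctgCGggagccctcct
DIO3, chr14:101561245-101561544, plus strand: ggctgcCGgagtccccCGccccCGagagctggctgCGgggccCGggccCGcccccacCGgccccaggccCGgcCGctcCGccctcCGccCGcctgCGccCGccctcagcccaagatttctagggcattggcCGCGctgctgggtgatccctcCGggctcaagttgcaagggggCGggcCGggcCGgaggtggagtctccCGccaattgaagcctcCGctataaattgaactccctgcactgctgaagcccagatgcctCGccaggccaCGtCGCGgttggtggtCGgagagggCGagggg
NDN, chr15:23687256-23687555, minus strand: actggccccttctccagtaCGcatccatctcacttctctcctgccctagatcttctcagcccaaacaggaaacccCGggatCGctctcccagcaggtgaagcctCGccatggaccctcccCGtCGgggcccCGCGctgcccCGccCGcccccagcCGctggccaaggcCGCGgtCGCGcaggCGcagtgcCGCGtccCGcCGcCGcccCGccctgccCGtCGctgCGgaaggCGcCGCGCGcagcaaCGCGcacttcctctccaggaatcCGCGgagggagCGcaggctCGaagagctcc

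Of the 39 members, 23 had a probe above background on all 8 arrays, 12 on no array and 4 (DLK1, PEG3, PEG10 and TP73) on some. Among the paternally expressed genes 8 of 18 were detected on all arrays and 7 on none, among the maternally expressed genes 6 of 7 and 1, and in the remaining class 9 of 14 and 4. The genes above background on no array were DIRAS3, MAGEL2, NDN, RTL1, SGCE, SNRPN, ZIM2, KLF14, ATP10A, DLX5, INS and WT1, with levels between −6.05 and −3.03. The Prader-Willi genes NDN, MAGEL2 and SNRPN on 15q11 therefore stayed below the detection limit in UHRF1-depleted cells with TSA as in the other groups, whereas MKRN3 of the same cluster was detected on every array between −0.95 and −0.35. DIRAS3, a RAS-like growth inhibitor silenced in many tumours, read −3.77 and −3.59 with both treatments against −5.38 and −5.48 in siCONT with mock, but was well above background nowhere, so it was not tested. SGCE, which shares its promoter region with PEG10, was likewise below background on all arrays.

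**Figure D1:**
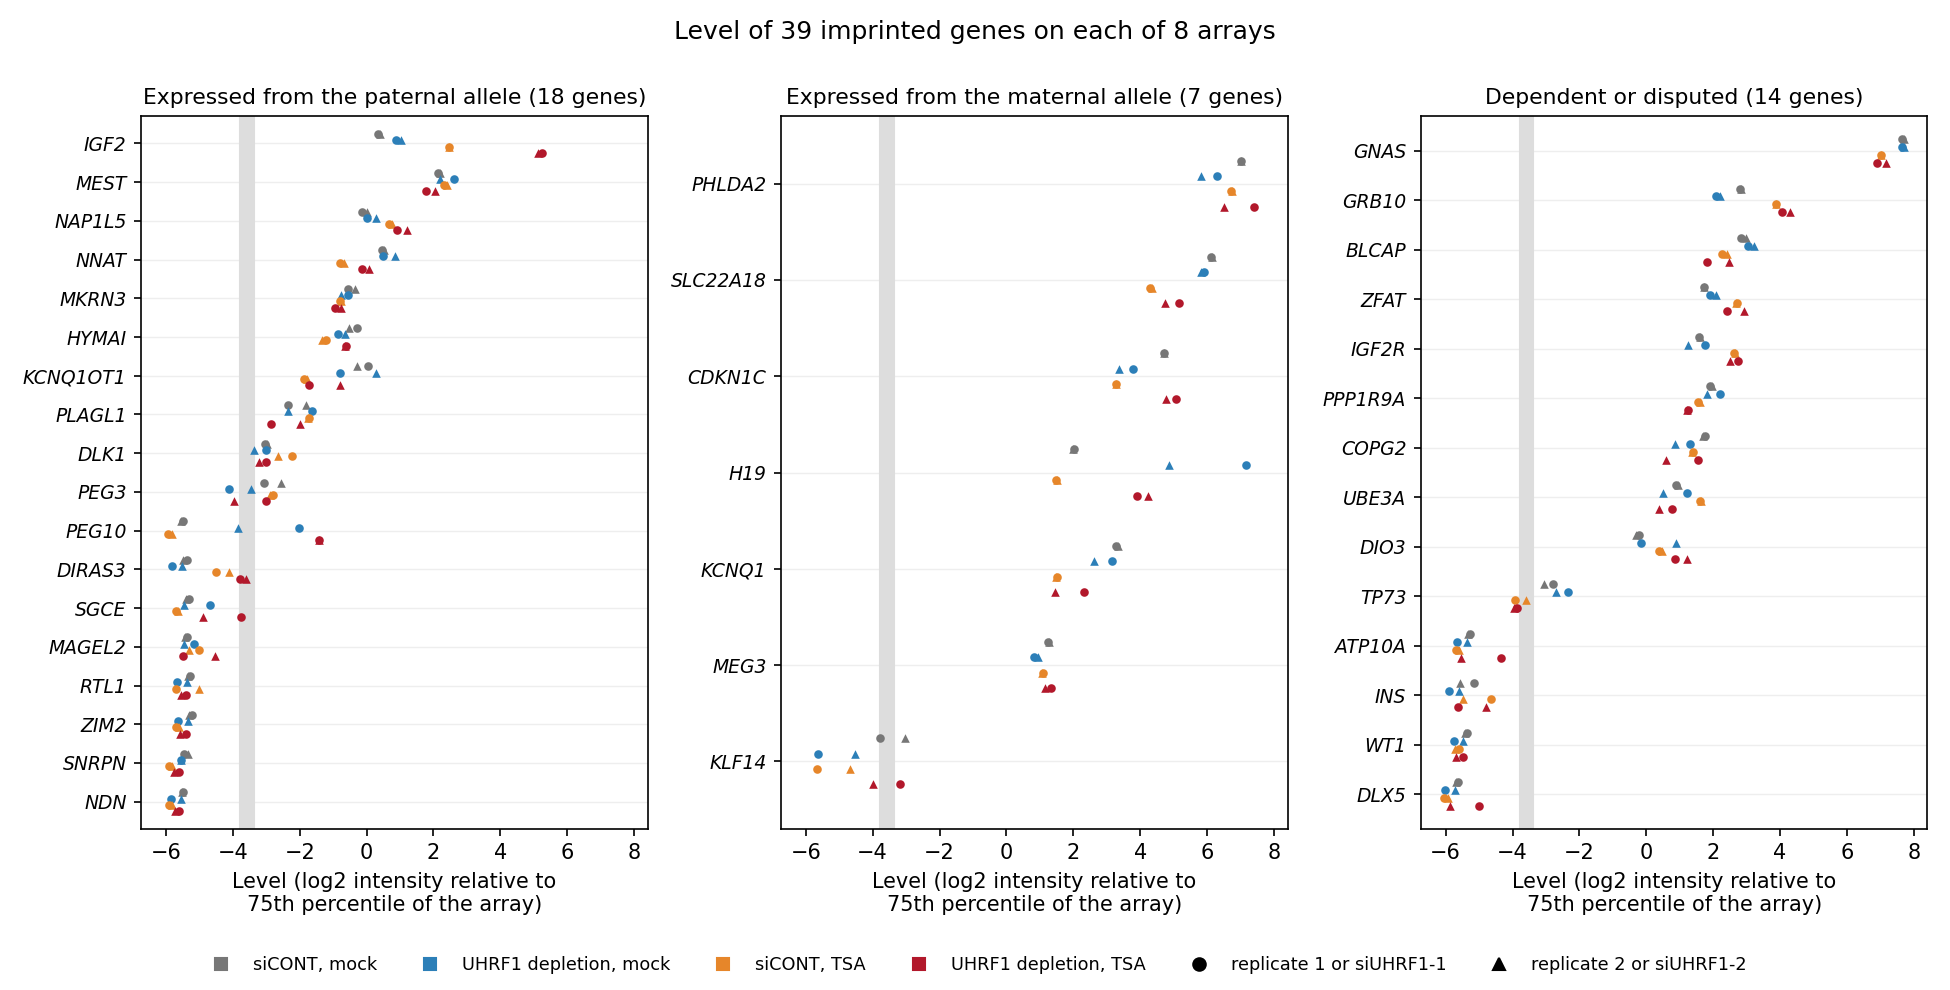
Level of each of the 39 imprinted genes (rows, by its brightest probe) on each of the 8 arrays, as log2 intensity over the 75th percentile (x axis), split by the parental class of the catalogues. Colours are the 4 groups, circles are replicate 1 or siUHRF1-1 and triangles replicate 2 or siUHRF1-2, and the grey band spans the lowest levels of any probe well above background on the 8 arrays (−3.79 to −3.37). The 12 undetected genes sit at the left, IGF2 moves to the right with TSA and further with both treatments, and within its own row H19 lies furthest right after UHRF1 depletion with mock.

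IGF2 encodes a fetal growth factor and is expressed from the paternal allele. Its level was 0.33 and 0.39 in siCONT with mock, 0.89 and 1.03 after UHRF1 depletion, 2.47 and 2.48 in siCONT with TSA, and 5.24 and 5.13 with both (intensities of 173 and 188 in siCONT with mock against 5662 and 5719 with both). No group overlapped another, and the order was the same with either siRNA. TSA alone raised IGF2 by 2.11 ± 0.12 (log2, SE; 4.33-fold; adjusted p = 3.13e-04 in limma), and UHRF1 depletion plus TSA by 4.82 ± 0.12 (28.3-fold; adjusted p = 2.60e-05). UHRF1 depletion under TSA gave 2.71 ± 0.12 (adjusted p = 6.19e-04). TSA in depleted cells gave 4.22 ± 0.12 (adjusted p = 3.87e-05). The interaction, which is what UHRF1 depletion changed under TSA less what it changed under mock, was 2.11 ± 0.16 (adjusted p = 7.09e-03). IGF2 was also called, with the siCONT arrays averaged, in all of these but the interaction (adjusted p = 0.0492, 4.92e-03, 0.0355, 2.24e-03 and, for the interaction, 0.290). The interaction also missed the threshold without replicate 1 or 2 of siCONT with mock (adjusted p = 0.0590 and 0.0510) and without replicate 2 of siCONT with TSA (0.0528). UHRF1 depletion under mock gave 0.60 ± 0.12 for IGF2, which was under the fold minimum and so not called. A further IGF2 probe, A_23_P421379, was above background on no array. The neighbouring insulin gene INS was also below background throughout.

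H19, a maternally expressed noncoding RNA that shares enhancers and a control region with IGF2, ranked the groups differently. Its level by the brighter probe was 2.03 and 1.98 in siCONT with mock, 7.17 and 4.86 after UHRF1 depletion, 1.48 and 1.5 in siCONT with TSA, and 3.91 and 4.24 with both. Every depleted array was above every siCONT array, and siUHRF1-1 was well above siUHRF1-2 under mock but slightly below it under TSA. UHRF1 depletion under mock raised H19 by 4.01 ± 0.67 (16.1-fold; adjusted p = 0.0263), by 5.17 with siUHRF1-1 and 2.85 with siUHRF1-2. Under TSA the rise was 2.59 ± 0.67 (adjusted p = 0.0478), with 2.42 and 2.75 for the 2 siRNAs, and UHRF1 depletion plus TSA stood 2.07 ± 0.67 above siCONT with mock (adjusted p = 0.0457). TSA gave −0.52 ± 0.67 in siCONT (adjusted p = 0.565) and −1.94 ± 0.67 in depleted cells (adjusted p = 0.0636), neither called, and the interaction was −1.43 ± 0.95 (adjusted p = 0.360). The other probe had 1.01 and 1.05, 6.24 and 3.78, 0.50 and 0.42, and 2.77 and 3.22 in the same order, and a change of 3.98 ± 0.72 under mock (adjusted p = 0.0308), while its 1.97 and 2.54 for both treatments and for depletion under TSA were not called (adjusted p = 0.0654 and 0.0595).

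The H19 calls were among the least firm of the members. None held with the siCONT arrays averaged (adjusted p = 0.319, 0.321 and 0.190 for depletion under mock, under TSA and with both). The call under mock was lost without replicate 1 or 2 of siCONT with mock (adjusted p = 0.155 and 0.146) or of siCONT with TSA (0.0703 for each), with a change between 3.99 and 4.03. The calls under TSA and with both treatments were lost without any single array of siCONT with mock, siCONT with TSA or UHRF1 depletion with TSA (adjusted p between 0.0741 and 0.192), with changes from 1.90 to 2.75.

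**Figure D2:**
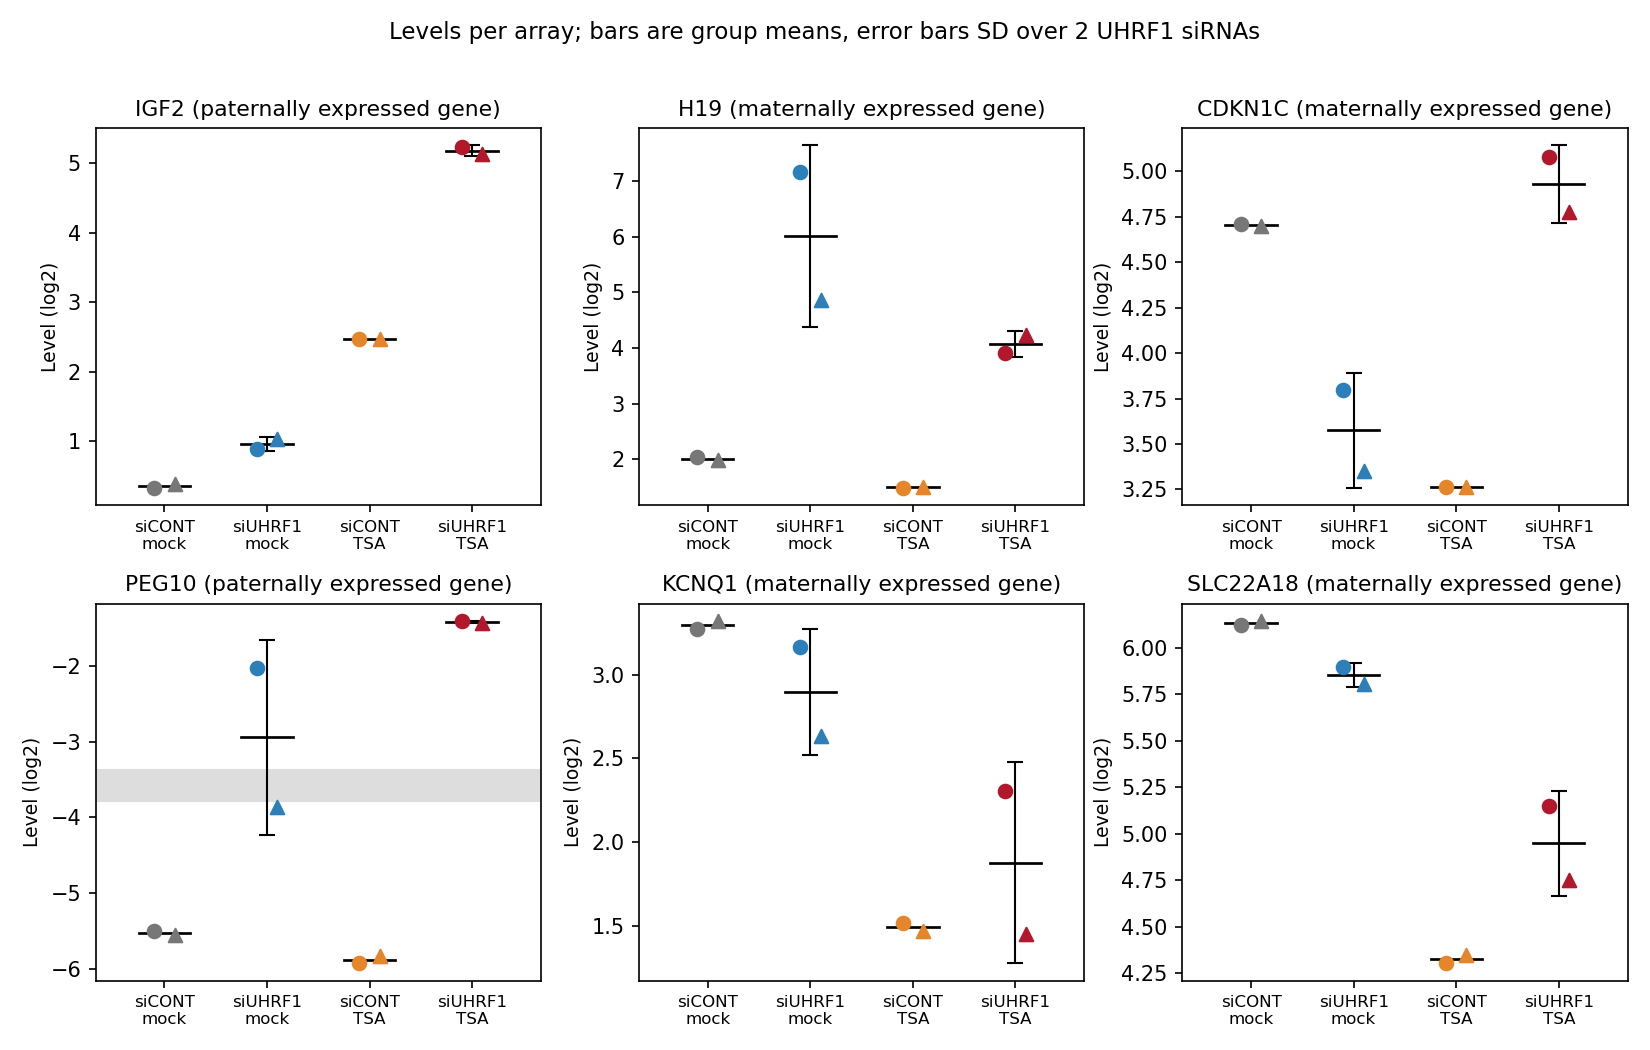
Level on each array (y axis, log2 intensity relative to the 75th percentile) for 6 members in the 4 groups. Circles are replicate 1 or siUHRF1-1, triangles replicate 2 or siUHRF1-2, horizontal bars are group means, and error bars are the SD over the 2 UHRF1 siRNAs; each siCONT group counts as 1 sample and has none. The grey band in the PEG10 panel spans the lowest levels well above background. IGF2 peaks with both treatments, H19 after UHRF1 depletion with mock, and CDKN1C is low with either treatment alone; the y axes differ and do not start at 0.

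The other detected members of 11p15 are the genes around KCNQ1. CDKN1C, a maternally expressed inhibitor of cyclin-dependent kinases, had levels of 4.71 and 4.70 in siCONT with mock, 3.80 and 3.35 after depletion, 3.26 and 3.26 in siCONT with TSA, and 5.08 and 4.78 with both. Either treatment alone lay below the control on both arrays, and at this scaling the combination lay slightly above it. With arrays scaled to their median, H19 was the only 1 of the 6 tested maternally expressed genes above siCONT with mock, so CDKN1C was not. The change with UHRF1 depletion was −1.13 ± 0.18 under mock (adjusted p = 0.0249) and 1.67 ± 0.18 under TSA (adjusted p = 5.82e-03). The change with TSA was −1.44 ± 0.18 in siCONT (adjusted p = 2.62e-03) and 1.35 ± 0.18 in depleted cells (adjusted p = 2.67e-03). With arrays scaled to their median, the rise in depleted cells was 0.96, under the fold minimum. The fall with UHRF1 depletion under mock was not called with that scaling or with quantile normalization. The combination differed from siCONT with mock by 0.22 ± 0.18 (adjusted p = 0.354), and the interaction was 2.80 ± 0.26 (adjusted p = 0.0109), the larger of the 2 called interactions among the members. Of these, the rise with TSA in depleted cells was the one still called with the siCONT arrays averaged (adjusted p = 0.0270), against 0.417, 0.129, 0.128 and 0.260 for the others. Without any single siCONT array the interaction had adjusted p between 0.0592 and 0.0688. The fall under mock was lost without each siCONT array (adjusted p between 0.0750 and 0.165) and, at −0.91, without siUHRF1-2. The rise under TSA was lost without replicate 1 or 2 of siCONT with TSA (adjusted p = 0.0511 and 0.0519).

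KCNQ1, a potassium channel gene, and SLC22A18, a transporter gene with the current symbol SLC67A1, were lower with TSA. KCNQ1 had 3.28 and 3.32 in siCONT with mock, 3.17 and 2.63 after depletion, 1.52 and 1.47 in siCONT with TSA, and 2.30 and 1.45 with both. All TSA arrays were below all mock arrays. TSA gave −1.81 ± 0.30 in siCONT (adjusted p = 6.41e-03), the combination −1.42 ± 0.30 (adjusted p = 0.0110), and TSA in depleted cells −1.02 ± 0.30 (adjusted p = 0.0403), of which none was called with the siCONT arrays averaged (adjusted p = 0.154, 0.0983 and 0.119). The call for TSA in siCONT held without any single array. That for the combination was lost without replicate 1 or 2 of siCONT with mock (adjusted p = 0.0514 and 0.0558) and, at −1.0, without siUHRF1-2 with TSA. That in depleted cells was lost without any array but siUHRF1-2 with mock and siUHRF1-1 with TSA, with changes down to −0.59. The other KCNQ1 probe was above background on no array.

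SLC22A18 had 6.12 and 6.14, 5.90 and 5.81, 4.3 and 4.35, and 5.15 and 4.75 in the same order, again with all TSA arrays below all mock arrays. It changed by −1.81 ± 0.16 with TSA in siCONT (adjusted p = 8.54e-04) and by −1.18 ± 0.16 with both (adjusted p = 1.84e-03; 0.0773 and 0.0560 with the siCONT arrays averaged). Its −0.90 ± 0.16 in depleted cells was under the fold minimum, as was the combination without siUHRF1-2 with TSA (−0.98). KCNQ1OT1, the paternally expressed antisense RNA that silences this cluster on its own allele, had 0.04 and −0.28, −0.79 and 0.29, −1.86 and −1.79, and −1.72 and −0.79. The groups with TSA were lower than siCONT with mock, and the depleted arrays overlapped between mock and TSA. It changed by −1.71 ± 0.43 with TSA in siCONT (adjusted p = 0.0238; 0.252 with the siCONT arrays averaged, and between 0.0742 and 0.114 without any single siCONT array), and had −1.14 ± 0.43 with both (adjusted p = 0.0720). The KCNQ1OT1 call was lost with normexp background correction and with no filter on dim probes. In the main fit KCNQ1OT1, KCNQ1, SLC22A18 and CDKN1C were thus all called lower with TSA in siCONT. Their neighbour PHLDA2, a growth restraint of the placenta, was bright in every group, at 7.0 and 7.01, 6.30 and 5.81, 6.72 and 6.75, and 7.39 and 6.50, and was called in no comparison.

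PEG10, a paternally expressed gene derived from a retrotransposon, was the member that went from undetected to detected. It was below background in both siCONT groups (−5.50 and −5.55 with mock, −5.93 and −5.82 with TSA). After UHRF1 depletion with mock it was above background on the array of siUHRF1-1 (−2.03) and below it on that of siUHRF1-2 (−3.86), and with both treatments it was above it on both arrays (−1.41 and −1.43). Against these bounds PEG10 was at least 3.93-fold higher with both treatments than in siCONT with mock (adjusted p = 1.71e-03; 0.0251 with the siCONT arrays averaged), and at least 4.99-fold higher than in siCONT with TSA (adjusted p = 6.66e-03; 0.0913 averaged, and 0.0530 and 0.0519 without replicate 1 or 2 of siCONT with TSA). PEG10 entered these tests only through the group in which it was high. The adjusted p belong to fitted changes of 4.10 and 4.45 (log2) against values below background, and not to the bounds. PEG10 was not tested for UHRF1 depletion under mock, since a single array was above background there, and TSA in depleted cells was not called (adjusted p = 0.0641). With normexp background correction the change against siCONT with mock was 0.91, under the fold minimum. The intensities were 46.1 and 10.3 after depletion with mock and 56.4 and 60.5 with both, against 3.04 in siCONT with mock.

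**Figure D3:**
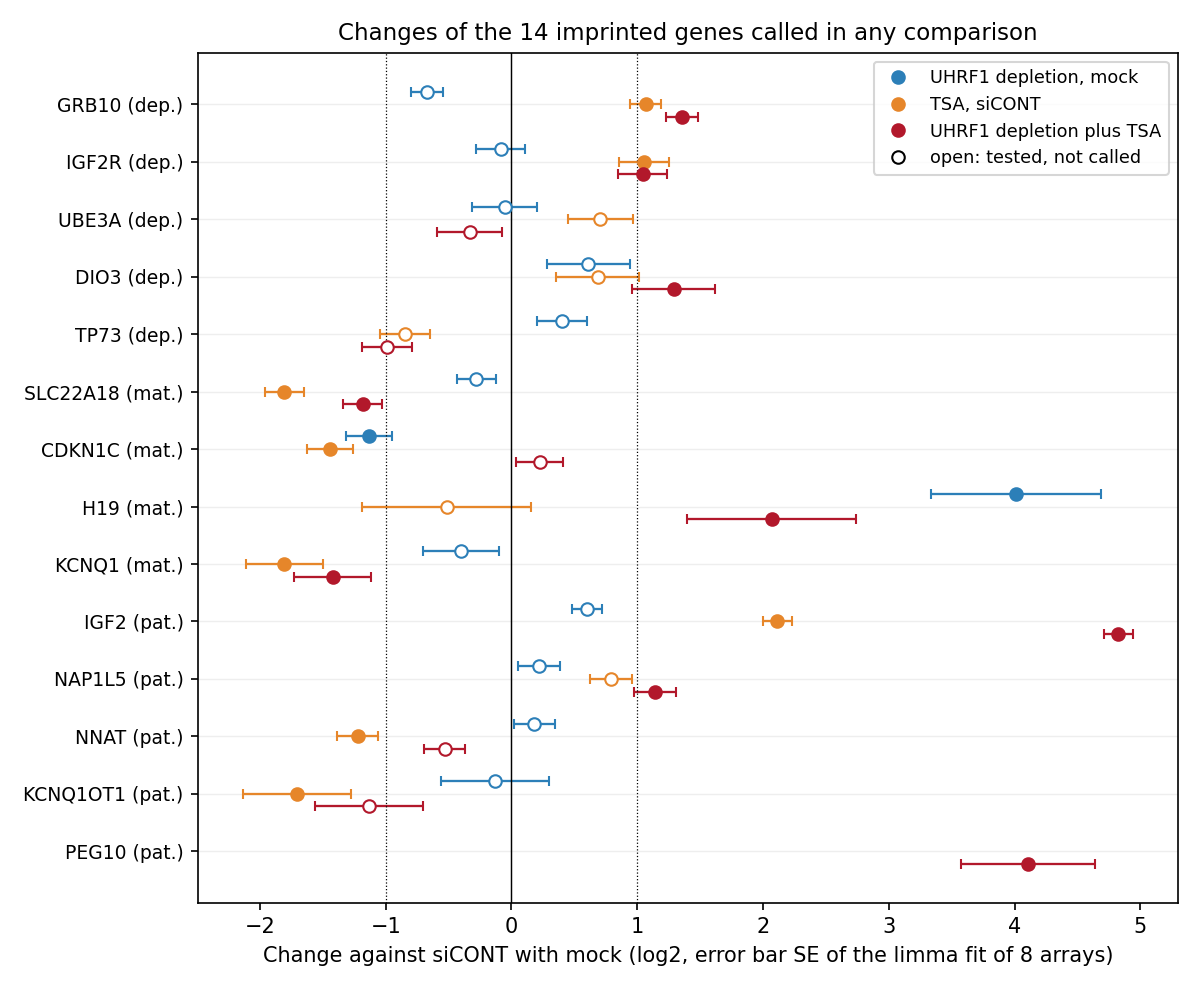
Change against siCONT with mock (x axis, log2) of the 14 imprinted genes called in at least 1 comparison, for UHRF1 depletion with mock, TSA in siCONT, and both. Points are limma estimates of the fit of 8 arrays with their SE, filled where called and open where tested but not called, dotted lines mark the 2-fold minimum, and pat., mat. and dep. give the catalogue class. Among the genes measured on all arrays IGF2 changes most with both treatments and H19 most with UHRF1 depletion alone; estimates for PEG10 and TP73 rest on values below background in some groups and are no bounds, so these genes have no rank.

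Among the other paternally expressed genes, NAP1L5, a retrogene of a nucleosome assembly protein, had −0.15 and 0.00, −0.00 and 0.29, 0.68 and 0.75, and 0.91 and 1.22, so that all TSA arrays were above all mock arrays. It rose by 1.14 ± 0.17 with both treatments (adjusted p = 2.69e-03; 0.0637 with the siCONT arrays averaged, and 0.98 in size without siUHRF1-2 with TSA), while 0.79 ± 0.17 with TSA in siCONT and 0.92 ± 0.17 with TSA in depleted cells were under the fold minimum. NNAT, which encodes the brain protein neuronatin, had 0.47 and 0.51, 0.49 and 0.86, −0.80 and −0.66, and −0.14 and 0.07, and changed by −1.22 ± 0.16 with TSA in siCONT (adjusted p = 3.02e-03; 0.147 averaged). Its changes of −0.53 with both and −0.71 with TSA in depleted cells were under the fold minimum. With normexp background correction neither the NAP1L5 call nor the NNAT call held, and median scaling also ended the NAP1L5 call. PEG3, a zinc finger gene, was detected on each siCONT array, under mock (−3.06 and −2.55) and TSA (−2.81 and −2.89), on neither after UHRF1 depletion with mock (−4.11 and −3.46), and on 1 array with both (−3.02 and −3.95). It was at least 1.73-fold lower after UHRF1 depletion than in siCONT with mock, which was not called (adjusted p = 0.139). DLK1, a growth inhibitor related to Notch ligands, was near the detection limit in every group (between −3.37 and −2.23) and was not called.

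In the class of dependent or disputed origin, GRB10, an adaptor that restrains insulin and growth factor signalling, was read by a pair of neighbouring probes (hg19 chr7:50657752-50657786 and chr7:50657813-50657872) that disagreed after UHRF1 depletion. The brighter one had 2.80 and 2.83 in siCONT with mock, 2.09 and 2.19 after depletion, 3.87 and 3.88 in siCONT with TSA, and 4.05 and 4.28 with both. The other had 0.93 and 0.93, 1.68 and 2.39, 3.41 and 3.36, and 3.45 and 3.41. UHRF1 depletion under mock gave −0.67 ± 0.13 on the brighter probe (under the fold minimum) and 1.1 ± 0.23 on the other (adjusted p = 0.0403; 0.488 with the siCONT arrays averaged). Without siUHRF1-2 with mock the second value was 0.75, and it also missed the threshold without any other single array but siUHRF1-1 with mock (adjusted p between 0.0540 and 0.208). With TSA both probes rose. TSA in siCONT gave 1.07 ± 0.13 and 2.45 ± 0.23 (adjusted p = 2.06e-03 and 9.99e-04; 0.155 and 0.0677 averaged), the combination 1.35 ± 0.13 and 2.5 ± 0.23 (adjusted p = 5.69e-04 and 5.33e-04; 0.0326 and 0.0161 averaged), and TSA in depleted cells 2.02 ± 0.13 and 1.39 ± 0.23 (adjusted p = 2.29e-04 and 4.91e-03; 6.18e-03 and 0.0339 averaged). All TSA arrays were above all mock arrays on either probe.

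IGF2R, the receptor that clears IGF2 from the cell surface, had 1.56 and 1.61, 1.76 and 1.23, 2.63 and 2.65, and 2.75 and 2.5. The TSA arrays lay above all mock arrays, and UHRF1 depletion left no called change. TSA gave 1.05 ± 0.20 in siCONT (adjusted p = 8.83e-03; 0.222 averaged, and between 0.0510 and 0.0593 without any single siCONT array), 1.13 ± 0.20 in depleted cells (adjusted p = 6.27e-03; 0.0459 averaged; 0.86 in size without siUHRF1-2 with mock), and the combination 1.04 ± 0.20 (adjusted p = 6.84e-03; 0.0994 averaged; 0.92 in size without siUHRF1-1 with TSA). IGF2 and its receptor therefore both rose with TSA.

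DIO3, which inactivates thyroid hormone and lies in the DLK1 and MEG3 cluster on 14q32, had −0.21 and −0.30, −0.16 and 0.88, 0.39 and 0.47, and 0.87 and 1.20, with the highest level on siUHRF1-2 with TSA. It rose by 1.29 ± 0.33 with both treatments (adjusted p = 0.0203; 0.137 averaged), and the call was lost without replicate 1 or 2 of siCONT with mock (adjusted p = 0.0749 and 0.0887) and without siUHRF1-2 with TSA (0.0966). Its dimmer probe was below background in both mock groups and above it on both arrays with both treatments, at least 1.68-fold higher than in siCONT with mock (adjusted p = 0.0288; 0.0295 averaged). That call was lost without replicate 1 of siCONT with mock (adjusted p = 0.0656) and without either array of UHRF1 depletion with TSA (0.110 and 0.0892). The dimmer DIO3 probe entered this test only through the group in which it was high, and the adjusted p is not that of the bound. TP73, a transcription factor gene, had −2.78 and −3.07, −2.33 and −2.72, −3.94 and −3.60, and −3.88 and −3.95, above background on all mock arrays and on no TSA array. It was at least 2.03-fold lower with TSA in depleted cells (adjusted p = 3.14e-03; 0.0197 averaged), and the bounds of 1.70-fold in siCONT and 1.53-fold for the combination came from changes under the fold minimum. TP73 entered the test in depleted cells only through the mock group, in which it was high, and the adjusted p is not that of the bound. With normexp background correction the change of TP73 with TSA in depleted cells was −0.24 (log2), under the fold minimum. Neither DIO3 probe was called with normexp for the combination. The call of the brighter DIO3 probe was also lost with median scaling and with no filter on dim probes. UBE3A, the Angelman syndrome ubiquitin ligase, had 0.89 and 0.94, 1.22 and 0.49, 1.59 and 1.65, and 0.78 and 0.38. It changed by −1.04 ± 0.26 with UHRF1 depletion under TSA (adjusted p = 0.0424; 0.357 averaged), a call that was lost without any single array of siCONT or of UHRF1 depletion with TSA (adjusted p between 0.0725 and 0.194), and its other probe had −0.23 ± 0.31 (adjusted p = 0.634).

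MEG3, a maternally expressed noncoding RNA, was called on a single probe. The brightest probe had 1.24 and 1.27, 0.82 and 0.93, 1.11 and 1.05, and 1.34 and 1.16, and the probe in AK124580 stayed between −1.27 and −0.87, with no call on either. A_33_P3255434, which lies furthest downstream of these probes, had −2.22 and −2.78, −3.18 and −2.66, −2.71 and −2.65, and −0.38 and −1.30. Only with both treatments did its arrays lie above those of the other groups. It rose by 1.66 ± 0.36 with both treatments (adjusted p = 0.0109; 0.0749 averaged; 0.0638 without replicate 2 of siCONT with mock), by 1.84 ± 0.36 with depletion under TSA (adjusted p = 0.0221; 0.208 averaged; 0.125, 0.120 and 0.0628 without siCONT with TSA 1 or 2 or siUHRF1-1 with TSA) and by 2.08 ± 0.36 with TSA in depleted cells (adjusted p = 5.99e-03; 0.0238 averaged), and the interaction was not called (2.26 ± 0.50, adjusted p = 0.0550). With normexp background correction these called changes of A_33_P3255434 were 0.72, 0.88 and 0.92 (log2) in that order, under the fold minimum. Which transcript the probes read cannot be told from these arrays. GNAS, which makes several transcripts from promoters of different parental origin, was read in its shared exons at 7.63 and 7.69 in siCONT with mock, and its probes for NM_016592 and NM_001077490, which have other first exons, were above background on no array.

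**Figure D4:**
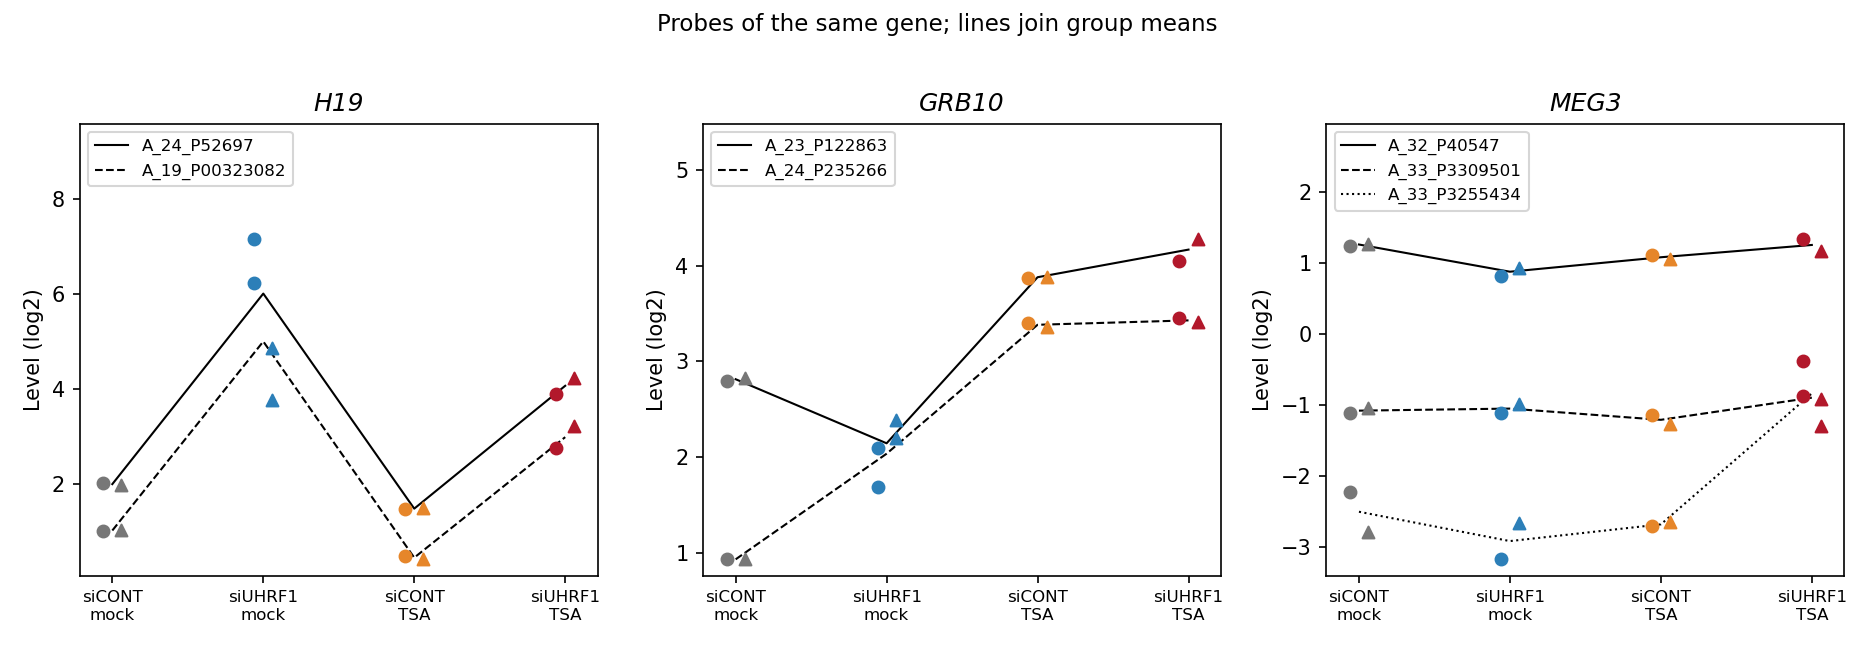
Level (y axis, log2 intensity relative to the 75th percentile) on each array for all probes of H19, GRB10 and MEG3 that were above background. Circles are replicate 1 or siUHRF1-1, triangles replicate 2 or siUHRF1-2, and lines join the group means of a probe. The H19 probes run in parallel, the GRB10 probes come close together after UHRF1 depletion with mock and lie apart in siCONT, and of the MEG3 probes A_33_P3255434 rises with both treatments.

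The remaining 11 members detected on all arrays (BLCAP, COPG2, GNAS, HYMAI, MEG3 by its brightest probe, MEST, MKRN3, PHLDA2, PLAGL1, PPP1R9A and ZFAT) were called in no comparison, with changes between −0.99 and 1.16. MEST and the overlapping COPG2, for instance, had changes with both treatments of −0.26 ± 0.18 and −0.65 ± 0.32. HYMAI, a noncoding RNA of the PLAGL1 locus, had −0.86 ± 0.14 with TSA in siCONT (adjusted p = 5.74e-03) and an interaction of 0.98 ± 0.20 (adjusted p = 0.0471), just under the fold minimum.

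Counted over the members, UHRF1 depletion under mock was followed by few calls. Of 25 tested genes 1 was called higher (H19) and 1 lower (CDKN1C), both maternally expressed, against 3.13% of all tested probes called higher and 0.987% lower. No paternally expressed gene was called of 9 tested, where limma gave 7 of the 25 members an unadjusted p under 0.05. In the fit of 6 samples limma called 0 members, against 0.0223% of all probes, and 2 had an unadjusted p under 0.05. Leaving out any single siCONT array left 0 calls, siUHRF1-1 with mock 3, and siUHRF1-2 with mock 1.

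TSA in siCONT was followed by calls in 8 of 26 tested members. IGF2, GRB10 and IGF2R rose, and CDKN1C, KCNQ1, SLC22A18, KCNQ1OT1 and NNAT fell, against 10.4% of all tested probes called higher and 8.21% lower. None of the 6 tested maternally expressed genes had a change above 0, and their median was −0.98, against 0.08 for the 10 tested paternally expressed genes and −0.11 for all tested probes. With quantile normalization 1 of the 6 was above 0, and their median was −0.84. If the dependent genes with a catalogue parent are added, 3 of 10 maternally expressed genes were called lower and 1 higher, with a median change of −0.44. Of 13 paternally expressed genes in that reading 2 were called lower and 1 higher, with a median of 0.19. With the siCONT arrays averaged IGF2 was the only member called, against 1.56% of all probes. Leaving out a single array left between 6 and 8 calls.

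UHRF1 depletion plus TSA was followed by calls in 9 of 27 tested members. IGF2, H19, PEG10, DIO3, GRB10, NAP1L5 and IGF2R were higher, and KCNQ1 and SLC22A18 lower, against 14.5% of all tested probes called higher and 11.1% lower. By class, 3 of 11 paternally expressed genes were higher and 0 lower, 1 of 6 maternally expressed genes was higher and 2 lower, and 3 of 10 of the remaining class were higher. PEG10, counted among the paternally expressed genes, entered the test only through the group in which it was high. The split depended on the scaling. With arrays scaled to their median, 2 members were called higher (IGF2 and PEG10) and 9 lower, and the median change of all tested probes moved from −0.14 to −0.54. In the fit of 6 samples IGF2, PEG10 and GRB10 were called, against 15.4% of all probes. Leaving out a single array left between 6 and 10 calls, with 6 without replicate 1 of siCONT with mock and without siUHRF1-2 with TSA.

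Within TSA-treated cells UHRF1 depletion was followed by 5 calls in 26 tested members, IGF2, H19, CDKN1C and PEG10 higher and UBE3A lower, against 5.39% of all tested probes called higher and 2.87% lower. PEG10 was again tested only through the group in which it was high. All 6 tested maternally expressed genes, which but for MEG3 lie at 11p15, had a change above 0. Their median was 0.50 against 0.00 for all tested probes, and the 11 tested paternally expressed genes had a median of 0.35. With arrays scaled to their median 4 of the 6 maternally expressed genes were above 0, with a median of 0.15. Their median also rested on single arrays, with 0.25 (4 of 6 above 0) without siUHRF1-1 with TSA and 0.82 without siUHRF1-2 with TSA. IGF2 was the only member called with the siCONT arrays averaged, against 0.692% of all probes, and 1 call was left without either replicate of siCONT with TSA and 3 without any single array of siCONT with mock or of UHRF1 depletion with TSA. Within UHRF1-depleted cells TSA was followed by 6 calls in 26 tested members, IGF2, CDKN1C, GRB10 and IGF2R higher and KCNQ1 and TP73 lower, against 11.7% of all tested probes called higher and 9.01% lower. With arrays scaled to their median these became 2 higher and 9 lower. In the fit of 6 samples 5 of the 6 were called, all but KCNQ1, against 17.6% of all probes.

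The interaction was called in 2 of 27 tested members, IGF2 and CDKN1C, both positive, against 2.83% of all tested probes with a positive and 2.07% with a negative call. With the siCONT arrays averaged limma called 0 members and 0% of all probes, and 3 members had an unadjusted p under 0.05. The count was 0 or 1 without any single siCONT array and between 3 and 6 without any single array of UHRF1 depletion. The comparisons share control arrays, so their calls are not independent of each other.

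Of 24 genes that maintain or read imprints, 20 were tested for UHRF1 depletion plus TSA. The median change was −0.34, and 3 were called higher and 3 lower, against 14.5% and 11.1% of all tested probes. The fit of 6 samples called 5, against 15.4% of all probes. UHRF1 was lower by a change of −3.84 ± 0.22 (adjusted p = 1.53e-04), the histone methyltransferase gene EHMT2 of −1.54 ± 0.12 (adjusted p = 3.14e-04) and DNMT1 of −1.28 ± 0.12 (adjusted p = 5.52e-04). DNMT1 had 2.72 and 2.76 in siCONT with mock, 2.74 and 2.59 after depletion, 2.04 and 1.99 in siCONT with TSA, and 1.51 and 1.41 with both. NLRP5 and NLRP7, maternal-effect genes of the oocyte, and DNMT3L, the cofactor of germ line methylation, were below background in siCONT with mock and at least 2.89-fold, 1.92-fold and 2.92-fold higher with both (adjusted p = 2.57e-04, 5.20e-04 and 9.40e-03). They entered this test only through the group in which they were high, and the adjusted p are not those of the bounds. With normexp background correction their changes were 0.68, 0.60 and 0.62 (log2), under the fold minimum. DNMT3L had adjusted p = 0.0703 with the siCONT arrays averaged and 0.0508 without siUHRF1-1 with TSA. Each of these lists was chosen with earlier results known.

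Of 56 other imprinted genes, 48 were on the array and 20 were tested for the combination, with a median change of −0.09, 4 called higher and 5 lower, against 14.5% and 11.1% of all tested probes. The fit of 6 samples called 8, against 15.4% of all probes. SLC22A18AS, the antisense partner of SLC22A18, had 2.91 and 2.89, 2.93 and 2.92, 0.47 and 0.49, and 0.31 and 0.43, and changed by −2.53 ± 0.11 (adjusted p = 8.22e-05), so both strands of that locus were lower with TSA. DIO3OS, the antisense partner of DIO3, had −1.84 and −1.70, 0.20 and 0.82, −0.04 and −0.06, and 0.30 and 1.49, and rose by 2.67 ± 0.40 (adjusted p = 2.85e-03), as its partner did. It was also called higher in limma with UHRF1 depletion under mock (2.28, adjusted p = 0.0286) and with TSA in siCONT (1.72, adjusted p = 0.0179). Neither of these 2 calls held with the siCONT arrays averaged. ASCL2, an 11p15 transcription factor of intestinal stem cells, had 5.51 and 5.52 in siCONT with mock, 6.40 and 6.64 after depletion, 4.09 and 4.12 in siCONT with TSA, and 3.62 and 4.23 with both. In limma it was called higher with UHRF1 depletion under mock (1.00, adjusted p = 0.0442), a call lost with the siCONT arrays averaged. It was called lower with TSA in depleted cells (−2.60, adjusted p = 5.32e-04). Its change was −1.41 ± 0.21 with TSA in siCONT (adjusted p = 4.52e-03; 0.154 averaged) and −1.59 ± 0.21 with both (adjusted p = 1.96e-03). With both treatments LIN28B and RBP5, tested only through the group in which they were high, were at least 1.52-fold and 1.84-fold higher (adjusted p = 7.63e-04 and 0.0190). INPP5F rose by 1.65 ± 0.15 (adjusted p = 5.63e-04), and SGK2 and CASD1 changed by −2.31 ± 0.36 and −1.57 ± 0.36 (adjusted p = 3.56e-03 and 0.0144). LIN28B, RBP5, INPP5F, SGK2 and CASD1 all lost the call with normexp background correction. RBP5 was not called without replicate 1 of siCONT with mock or siUHRF1-1 with TSA, and CASD1 was not called without replicate 2 of siCONT with mock or siUHRF1-2 with TSA, nor with the siCONT arrays averaged. The other gene called lower, ERAP2, lies beyond the 8 genes that the naming rule takes from a list.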

How the data were processed

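Spot intensities on a linear scale were deposited for every array, extracted by the authors with Agilent Feature Extraction 10.7 per the submitters' processing notes. The processed signal is background-subtracted, and no scaling between arrays has been applied to it. A deposited table with a single intensity for each probe and array held 0.995 to 1.00 times that signal. The study's methods name GeneSpring GX without its normalization. The level used here is the log2 processed intensity less the array's 75th percentile among non-control probes. The share of probes well above background ranged from 43.3% to 48.0% between arrays, no spot was saturated, and the number of arrays limits the precision.

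The model (limma 3.58.1, R 4.3.3) was fitted with 4 group means to all 8 arrays (4 residual degrees of freedom, prior 2.17), and again with the siCONT arrays of an agent averaged (6 samples, 2 residual degrees of freedom, prior 3.26). The tests were two-sided, and p-values were adjusted over all tested probes. The labels do not say whether siCONT replicates came from separate cultures, so the spread between siCONT arrays may be technical. The p-values measure a spread pooled over all groups. Arrays of the 2 UHRF1 siRNAs differed by 13.7 times the spot noise under mock and 10.3 times under TSA. The pooled spread therefore reflects largely the difference between the arrays of these siRNAs. The fits were tested on simulated data. There all arrays of a probe shared a common spread, so the unequal spread of the groups here was not examined. A probe on no array above background in a group has only a bound there, and the brighter group over the dimmer is given as "at least N-fold": the bright group's mean against a limit averaged over the dim group's arrays, which on each is the lowest signal of any probe well above background or, if brighter, the probe itself. An adjusted p beside a bound is that of the fitted change, which uses the values below background, and not of the bound. All probe positions are hg19. Probe names were matched to RefSeq by transcript for 53 of 59 probes, 52 with the same symbol.

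Of several probes of a gene the one with the highest mean stood for the gene. Named with full values were members called in at least 1 comparison or above background in 1 group and on no array of another; from the other lists up to 8 genes with the largest called change for the combination. The members and lists were chosen with earlier results of these data known. Alternatives were other scalings, normexp background correction (offset 50), the deposited table, filters on dim probes, a replicate block, leaving out each array, and the methods' t-test.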

Additional observations from a re-analysis of the deposited data

Results flagged for a closer look

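The effect of UHRF1 depletion differed between mock and TSA, by a called interaction in limma, for IGF2 (2.11 on the log2 scale) and CDKN1C (2.80) among the imprinted members, and for NLRP7 (3.74) and LIN28B (2.68) among the further genes named. IGF2 changed by 0.60 with depletion under mock and 2.71 under TSA, and CDKN1C fell with depletion under mock and rose under TSA. NLRP7 and LIN28B were above background only in UHRF1-depleted cells with TSA, the group through which they were tested, so their values are fitted against groups at background and are no bounds. With normexp background correction these were 0.77 and 0.52, and both calls were lost when any single siCONT array was left out. None of the 4 was called with the siCONT arrays averaged, with adjusted p = 0.290, 0.260, 0.259 and 0.369.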

How the results depend on the processing

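No called change of a named member or list gene reversed under any alternative run. Changes that were not called were not followed in this way. With both treatments, for instance, 1 of the 6 tested maternally expressed genes was above 0 with median scaling, against 2 in the main run. The number of members called is given for UHRF1 depletion under mock, TSA in siCONT, both treatments, depletion under TSA, TSA in depleted cells and the interaction, where it moved by over 1.5 times. With the siCONT arrays averaged, the first 4 and the interaction went from 2, 8, 9, 5 and 2 to 0, 1, 3, 1 and 0. For depletion under mock, quantile normalization and median scaling gave 1 call each, no filter on dim probes 0, and the methods' t-test 1 unadjusted and 0 after Benjamini-Hochberg. For both treatments the adjusted t-test gave 4. For depletion under TSA no filter gave 3 and the adjusted t-test 0. For TSA in depleted cells median scaling gave 11 against 6 and the adjusted t-test 0. Leaving out 1 array gave 0 to 3, 6 to 8, 6 to 10, 1 to 5, 5 to 8 and 0 to 6 calls in that order. An arm left with 1 array was assumed to vary like the other groups.

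The replicate numbers pair no samples: the correlations of same-numbered deviations lay between −0.06 and 0.07 except for the depleted groups, which share their siRNAs (0.34). With the replicate block 2, 8, 8, 4, 6 and 2 members were called. The block ended the calls of GRB10 by its dimmer probe under mock, and of H19 with both treatments and under TSA.

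Of 41 called changes of member probes, 14 were called with the siCONT arrays averaged, 29 with normexp 32 with median scaling, 36 with quantile normalization and 41 with the deposited table. The t-test was not run for the interaction. Probes near background have little depth: PEG10, PEG3, DLK1, TP73 and the dimmer DIO3 probe rest on signals close to the detection limit. The MEG3 probe A_33_P3255434 was also near that limit except with both treatments.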
